A study of Homo sapiens with 6 samples.

Results

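RNA of RPE-1 cells, an immortalised human retinal pigment epithelial line, was compared between cells released from a thymidine block for 6 h and cells of an unsynchronised culture. The released cells (6h_DMSO) had been held at the start of S phase by 2 mM thymidine for 24 h and washed, and they received the solvent DMSO from 1 h to 6 h of release. The series' design text places them in G2. The cycling cells had neither thymidine nor DMSO. Block, wash and solvent therefore come together with cell cycle stage in this comparison and cannot be told apart. The 6 libraries, A, B and C of each condition from 3 independent experiments, were chosen from 17 libraries of 6 conditions in the series. Arrested cells, left in thymidine, and cells after 4 h of release with DMSO (4h_DMSO, late S phase) had 3 libraries each and serve as points on the way. All cells are of 1 line in culture.

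A culture that divides without synchrony is a mixture, in which most cells are in G1 and few are in G2 or mitosis. Genes for the spindle, the kinetochore and mitotic entry are held low in G1 by the DREAM complex and are switched on in S and G2 by B-MYB, FOXM1 and the MuvB core, often through a CHR element in the promoter. Genes for origin licensing and nucleotide supply follow E2F and peak near the G1/S border. In bulk RNA a change in the share of cells that hold a transcript and a change in the amount per cell cannot be told apart.

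The 6 libraries held 1784999 to 2357561 counts, so that 1 CPM (counts scaled to the library size) is about 1.78 to 2.36 counts and changes of features at a few CPM are imprecise. Many counts lay on features opposite to listed genes, and the strand setting of the counting is not given in the sources used here. Of 48 pairs of a G2 or mitosis gene and a feature on its opposite strand, 29 held more counts on the opposite feature. Values of overlapped features, listed genes among them, are uncertain as to the gene. With the strand setting unknown, a low value of a listed gene may not show its RNA level, overlapped or not. Experiment B stood apart: 1 unnamed feature took 7.04 to 11.5% of counts in the B libraries and 1.3 to 4.48% elsewhere. The nuclear RNA MALAT1 and the mitochondrial ribosomal RNAs were also highest in B. Of the line's markers, VIM, the filament protein vimentin, had 1052 to 1192 CPM at 6 h and 909.6 to 1202 in cycling cells, uncertain as to strand (opposite VIM-AS1). Equally uncertain, BEST1 (opposite FTH1) had 11608 to 13729 CPM at 6 h and PMEL (opposite CDK2) 272 to 352. KRT8 and KRT18, opposite to each other, had 2858 to 5342 and 212 to 352 CPM at 6 h. RLBP1, LRAT, TYR, MITF and OTX2 reached at most 8.25 CPM at 6 h and 6.79 in cycling cells. RPE65, the isomerase of the visual cycle, had no count in any of the 6 libraries, and EPCAM, CDH5 and CD3E, markers of other cells, had none either. PTPRC, the leukocyte marker, had none at 6 h and up to 0.503 CPM in cycling cells, CD68 (opposite AC016876.1) had 2.29 to 4.48 CPM at 6 h and 2.55 to 6.04 in cycling cells, and GFAP (opposite CCDC103) had 1.38 to 4.11 CPM at 6 h and 4.17 to 6.79 in cycling cells. Of 7 such markers tested, 1 was called, against 6.29% of all features. It is MYH11, which lies opposite to the mitosis gene NDE1 (0.81 ± 0.11, adjusted p = 1.51e-08). Of 15 retinal pigment epithelium genes tested, edgeR called none, with 1 at an unadjusted p under 0.05, and DESeq2 called 0.

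At 6 h, 375 features were higher and 475 lower than in cycling cells among 13510 tested, that is 2.78% and 3.52%, or 6.29% together. A call is an adjusted p under 0.05 in edgeR's quasi-likelihood test with the experiment as a block, adjusted by the Benjamini-Hochberg method. Fold changes are log2 values ± SE, positive where 6h_DMSO is higher. The median over all features was -0.02. Arrested cells differed from cycling ones in 5.64% of features (2.81% higher, 2.83% lower) and 4h_DMSO cells in 5.87% (2.64% higher, 3.23% lower). Without the block, 66 of the 6 h features were called higher and 74 lower. The authors' deposited table, made with DESeq2, lists 119 features higher and 101 lower at its adjusted p-value under 0.05, of which 219 were called the same way here. Of the 850 called features, 72.7% are overlapped on the opposite strand, against 51.9% of all features tested.

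Among the gene lists, that of G2 and mitosis held the most rises. Of 113 tested, 27 rose, 5 fell and 81 did not pass, with a median log2 change of 0.45. Of 48 features opposite to them, 16 rose and 0 fell, where DESeq2 called 16 and 0 and unadjusted p under 0.05 gave 24 and 3. The share of members that rose lies well above the 2.78% of all features. The count of members rests on the experiment block and on experiment A: 8 rose without the block, where 66 of all features did. Without experiment A 6 members and 184 of all features rose, and without C 14 and 305. Without the 6h_DMSO library of A or of C, 17 and 14 members rose, and 278 and 292 of all features. For the opposite features 6 rose without the block and 9 without experiment A.

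The promoters of 3 of the genes that rose are shown, marked for the CHR and CCAAT letters by which G2 genes are commonly described. They were chosen by smallest p, come from RefSeq (GRCh38.p14) and run from 250 bases before to 50 bases after the start of the gene. Capitals mark TTTGAA or TTCGAA (CHR) and CCAAT (the NF-Y box) on either strand.
TOP2A (chr17:40417847-40418146, minus strand): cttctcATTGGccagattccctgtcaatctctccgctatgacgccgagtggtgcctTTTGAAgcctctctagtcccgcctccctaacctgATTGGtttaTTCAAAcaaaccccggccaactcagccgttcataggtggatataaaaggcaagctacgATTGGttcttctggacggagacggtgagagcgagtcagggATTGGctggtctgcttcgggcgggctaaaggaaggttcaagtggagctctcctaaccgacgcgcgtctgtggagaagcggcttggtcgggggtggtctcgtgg
HJURP (chr2:233854486-233854785, minus strand): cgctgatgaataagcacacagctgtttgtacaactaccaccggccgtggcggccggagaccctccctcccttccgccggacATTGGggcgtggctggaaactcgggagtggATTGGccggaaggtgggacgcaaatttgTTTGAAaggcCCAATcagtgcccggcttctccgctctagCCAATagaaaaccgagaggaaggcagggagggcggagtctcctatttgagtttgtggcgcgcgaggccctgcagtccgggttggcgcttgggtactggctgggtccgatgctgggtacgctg
MKI67 (chr10:128126374-128126673, minus strand): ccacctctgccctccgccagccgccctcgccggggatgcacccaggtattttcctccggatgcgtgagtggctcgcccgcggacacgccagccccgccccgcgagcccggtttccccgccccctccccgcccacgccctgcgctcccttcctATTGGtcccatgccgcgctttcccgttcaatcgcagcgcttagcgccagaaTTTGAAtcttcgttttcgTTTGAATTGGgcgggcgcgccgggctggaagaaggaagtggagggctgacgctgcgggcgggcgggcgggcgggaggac
TOP2A has CHR letters starting at -194 and -151 and HJURP at -111, counted from the first base of the gene, with inverted or direct CCAAT boxes on both sides. In MKI67 the second CHR match starts at -29 and overlaps an inverted CCAAT. Of the 27 genes that rose 21 have a promoter in the table, and 15 of these, 71.4%, hold CHR letters, against 16.6% of 27305 promoters. Among the other G2 and mitosis genes tested the share was 73.6%. CCAAT was in 61.9% of the first set, 68.1% of the second and 35.7% of all promoters.

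TOP2A, the topoisomerase that untangles sister chromatids, had 119.8, 88.9 and 101 CPM in A, B and C at 6 h, against 42.1, 54.8 and 52.2 in cycling cells. All 6 h libraries lay above all cycling ones, and the difference was 2.08-fold (log2 1.05 ± 0.15, adjusted p = 1.51e-08). MKI67, whose product Ki-67 coats mitotic chromosomes, had 444, 442 and 416 CPM at 6 h, against 280.2, 348 and 229 in cycling cells, again without overlap (0.62 ± 0.10, adjusted p = 8.11e-07). HJURP, the chaperone that loads the centromere histone CENP-A, had 42.9, 28.1 and 33.4 CPM at 6 h and 13.7, 7.47 and 13 in cycling cells. It rose 3.04-fold (1.60 ± 0.25, adjusted p = 3.56e-07), and MROH2A opposite to it gave 1.29 ± 0.55 (adjusted p = 0.174). These 3 calls held in every fit that left out a library or an experiment, and also without the block (adjusted p = 0.00204, 0.0492 and 0.00214 for TOP2A, MKI67 and HJURP).

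Of 14 genes for CDK1 and its regulators 3 rose (CCNF, CDC25B and CDK1, with 0 called without the block), 2 fell and 9 did not pass. Of all features 2.78% rose and 3.52% fell. AC106820.5, the feature opposite to CCNF, had 429, 313 and 350.1 CPM at 6 h, against 167, 142 and 159 in cycling cells. The groups are far apart (1.21 ± 0.11, adjusted p = 1.58e-18; 0.000314 without the block). CCNF itself, at 18.6, 24.6 and 23 CPM at 6 h and 8.42, 11 and 15.5 in cycling cells, moved the same way (0.93 ± 0.27, adjusted p = 0.0198) but lost its call without the block (adjusted p = 0.108) and in 6 of the 9 fits that left something out (up to 0.179, without experiment A). DIS3, an exosome nuclease whose gene is opposite to BORA, the activator of PLK1, had 391, 342 and 259 CPM at 6 h and 148, 124 and 151 in cycling cells (1.22 ± 0.12, adjusted p = 2.45e-15). BORA itself had 28, 28.1 and 26.8 CPM at 6 h and 33.3, 36.9 and 30.9 in cycling cells (-0.28 ± 0.22, adjusted p = 0.557), so the pair's strands gave different values. GNB3, opposite to CDCA3, a trigger of mitotic entry, had 202, 155 and 179 CPM at 6 h and 78.9, 57.3 and 92.7 in cycling cells (1.22 ± 0.14, adjusted p = 7.58e-11), while CDCA3 itself gave 0.36 ± 0.15 (adjusted p = 0.151). DIS3 and GNB3 kept their calls without the block, each with an adjusted p of 0.00111. CDC25B, the phosphatase that first activates CDK1, rose (0.94 ± 0.26, adjusted p = 0.00974), a call lost without the block (0.25) and in 4 of 9 fits (up to 0.197, without experiment A). CDK1 (1.17 ± 0.38, adjusted p = 0.0453) lost it in 7 of 9 (up to 0.335, without the 6h_DMSO library of A).

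Of 18 centromere and kinetochore genes 4 rose, 1 fell and 13 did not pass, and of 18 genes of spindle assembly and position 6 rose (0 without the block), 1 fell and 11 did not pass. Of 12 kinesins 4 rose and 8 did not pass. Of all features 2.78% were called higher and 3.52% lower. A fall of 1 in 18 lies near that share. KIF23, the kinesin of the central spindle, had 55.5, 35.7 and 51.5 CPM at 6 h and 19.1, 21.9 and 27 in cycling cells (1.05 ± 0.20, adjusted p = 5.56e-05), with KIF23-AS1 opposite to it at 0.64 ± 0.12 (adjusted p = 1.43e-05). The KIF23 call was lost without experiment A (adjusted p = 0.0588), and that of KIF23-AS1 without the block (0.127). SKA3, which ties kinetochores to microtubule ends, had 8.86, 8.04 and 9.32 CPM at 6 h and 2.66, 1.99 and 2.41 in cycling cells. Its difference of 3.63-fold (1.86 ± 0.48, adjusted p = 0.00478) was lost without experiment A (0.0612). KIF18A, a kinesin that damps chromosome movement (opposite METTL15), differed by 3.95-fold (1.98 ± 0.51, adjusted p = 0.00489), lost in 3 of 9 fits (up to 0.14, without experiment C). The fitted rises of the large kinetochore proteins were smaller: CENPE 1.00 ± 0.25 (adjusted p = 0.00441) and CENPF 0.46 ± 0.14 (adjusted p = 0.0273). Neither passed without the block (0.209 and 0.25) or without experiment A (0.176 and 0.517). CENPF had 113, 90.4 and 97 CPM at 6 h and 65.6, 81.2 and 73.4 in cycling cells, close but not overlapping.

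**Figure D1:**
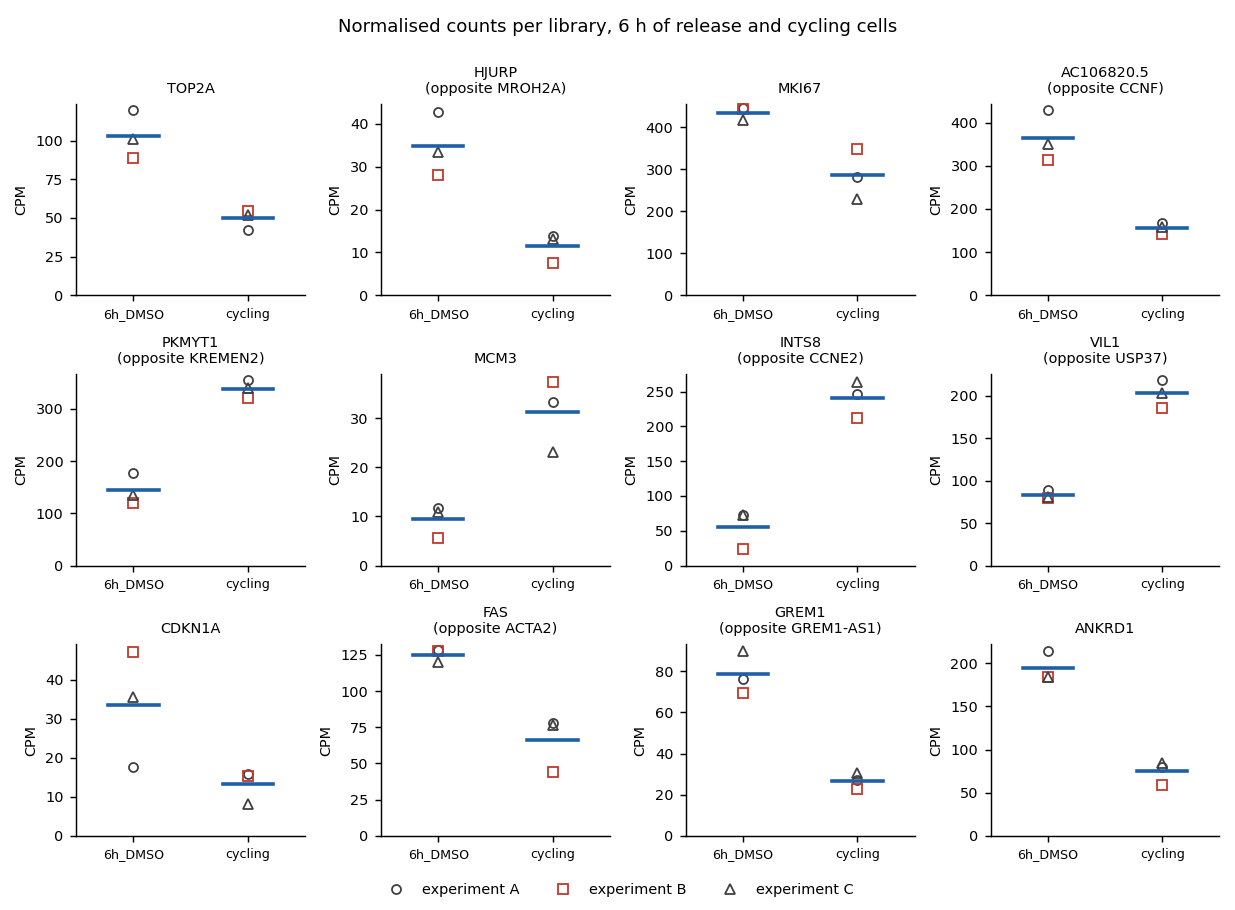
Normalised counts (CPM, linear axis from 0) of 12 features in the 3 libraries of 6h_DMSO (left in each panel) and of cycling cells (right). Symbols mark experiments A, B and C, blue bars the mean of 3 libraries, and a partner on the opposite strand is named in the title. TOP2A sits at 88.9 to 119.8 CPM at 6 h and MCM3 at 5.52 to 11.7.

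Not all features named for G2 genes were called above the cycling culture. With the strand setting unknown, their values may not show the RNA of those genes. PLK1, the polo kinase that drives mitotic entry, had 24.7, 17.1 and 20.8 CPM at 6 h and 20.8, 21.9 and 12.1 in cycling cells, with overlapping groups (0.20 ± 0.26, adjusted p = 0.776). Its opposite features AC008870.3, with 719, 471 and 475 CPM at 6 h and 403, 355 and 436 in cycling cells (0.45 ± 0.10, adjusted p = 0.00137), and ERN2 (0.49 ± 0.17, adjusted p = 0.0538) stood on either side of the threshold. The call of AC008870.3 was lost without the block (0.339) and without experiment A (0.348). UBE2S, which extends ubiquitin chains for the anaphase-promoting complex, had 107, 122 and 114 CPM at 6 h and 132, 117 and 105 in cycling cells. The fitted difference was -0.05 ± 0.13, an interval of -0.30 to 0.21 at 2 SE each way (adjusted p = 0.908). CDC20, an activator of the same complex, had 30.3, 44.7 and 28.5 CPM at 6 h and 35.9, 28.9 and 22.2 in cycling cells (0.23 ± 0.21, interval -0.20 to 0.66). SAPCD2, which takes part in spindle positioning, had 14.9, 21.1 and 18.6 CPM at 6 h and 19.1, 18.4 and 13 in cycling cells, and AL807752.3 opposite to it 251, 160.2 and 162 against 214, 199.7 and 228. Their differences were 0.11 ± 0.29 and -0.18 ± 0.12 (adjusted p = 0.911 and 0.441), which does not show that the levels were equal.

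These features were called higher than in arrested cells. The 6 h libraries, which both comparisons share, were higher than arrested ones by 2.11 ± 0.33 for PLK1, 2.28 ± 0.11 for AC008870.3, 2.45 ± 0.20 for ERN2, 1.96 ± 0.26 for CDC20, 1.26 ± 0.14 for UBE2S, 2.04 ± 0.36 for SAPCD2 and 1.52 ± 0.13 for AL807752.3, all called among the 7.71% of features called there (3.77% higher, 3.94% lower). TOP2A gave the other pattern, at 0.87 ± 0.15 over arrested and 1.05 ± 0.15 over cycling cells. Cyclin B1 had few counts (CCNB1, 9.32, 8.04 and 7.67 CPM at 6 h, 5.32, 7.97 and 5.8 in cycling cells), and its difference of 0.41 ± 0.39 had an interval of -0.38 to 1.19. CCNB2 (-0.23 ± 0.25), the factor FOXM1 (-0.26 ± 0.18; opposite ITFG2), WEE1, the kinase that restrains CDK1 (0.35 ± 0.28), and CDC25C (-0.25 ± 0.22; opposite FAM53C) did not pass either.

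**Figure D2:**
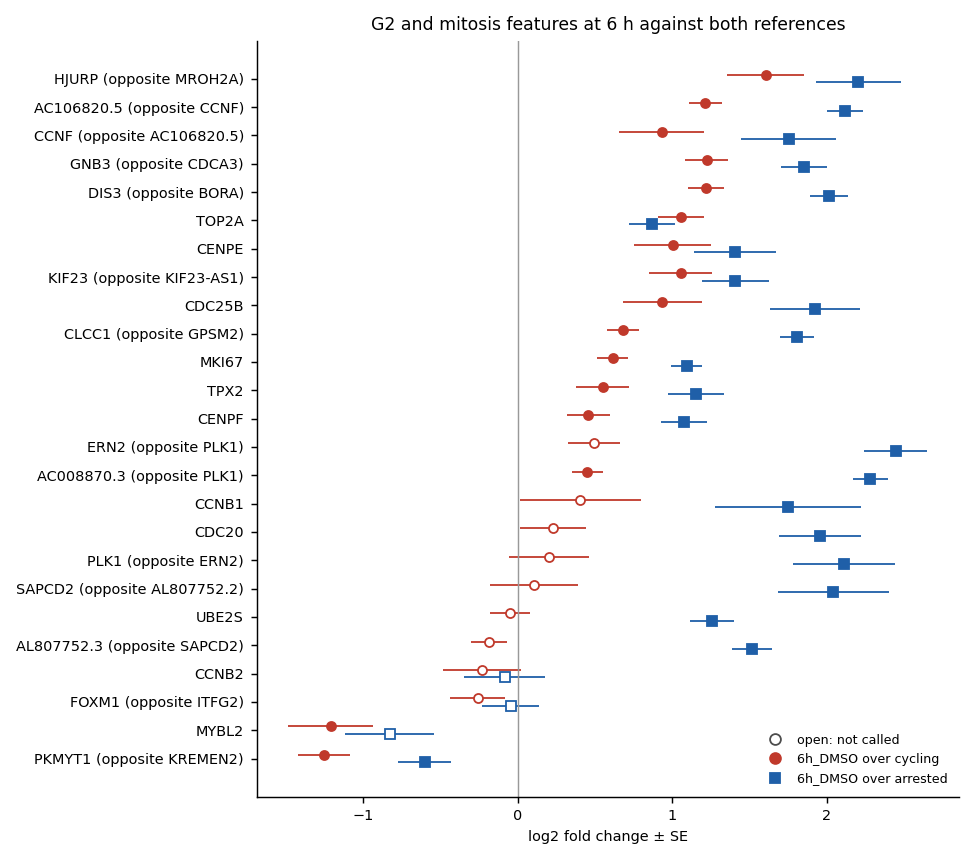
Log2 fold change ± SE of 25 G2 and mitosis features in 6h_DMSO over cycling cells (red circles) and over arrested cells (blue squares); open symbols were not called, and both comparisons share the 6h_DMSO libraries. HJURP and AC106820.5 lie above both references, UBE2S and AL807752.3 lie near 0 against cycling cells, and PKMYT1 lies below 0 against both.

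In 5 of the 113 listed genes the 6 h cells were lower, a share near the 3.52% of all features called lower. The count was 2 without the block, 3 in DESeq2 and 2 to 4 with a library or an experiment left out. PKMYT1, the membrane kinase that inhibits CDK1 and an E2F target, had 177, 119.5 and 135 CPM at 6 h and 355, 321 and 339.5 in cycling cells (-1.25 ± 0.17, adjusted p = 3.01e-05; 0.0365 without the block). It is overlapped by KREMEN2 and PAQR4. MYBL2, which encodes B-MYB and is switched on at the G1/S border, had 10.7, 10.5 and 12.6 CPM at 6 h and 28.8, 27.9 and 21.3 in cycling cells (-1.21 ± 0.27, adjusted p = 0.00104). That call was lost without experiment A (0.0771). GPSM2, a spindle position protein, fell (-0.54 ± 0.10, adjusted p = 3.89e-05) while CLCC1 opposite to it rose (0.68 ± 0.10, adjusted p = 1.71e-07). CLCC1 had 497, 391 and 385 CPM at 6 h and 293, 240.1 and 257 in cycling cells. Likewise CCNA2, cyclin A2, fell (-0.40 ± 0.13, adjusted p = 0.0354) and EXOSC9 opposite to it rose (0.56 ± 0.11, adjusted p = 0.000108). For both pairs, GPSM2 with CLCC1 and CCNA2 with EXOSC9, which gene the counts belong to is uncertain. Calls of GPSM2, CCNA2 and EXOSC9 were lost without the block (0.108, 0.411 and 0.606), that of CCNA2 in 8 of 9 fits that left something out (up to 0.39, without the cycling library of B), and that of EXOSC9 without experiment A (0.069).

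Of 60 S phase genes tested, 11 fell, 1 rose and 48 did not pass, with a median of -0.39, and 9 of 27 opposite features fell. Read against the 3.52% of all features called lower, both shares are above it. The count of genes fell to 1 without the block or without experiment A, 3 without experiment B, and 3, 4 and 6 without the 6h_DMSO library of A, B and C. It was 3 and 4 without the cycling library of A and of B, and DESeq2 called 7. Of all features, 74 were called lower without the block, 221 without experiment A and 226 without B, in place of 475. The 9 opposite features were 6 without the block and 8 to 10 with a library or an experiment left out.

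MCM3, a subunit of the replicative helicase, had 11.7, 5.52 and 11 CPM at 6 h, against 33.3, 37.4 and 23.2 in cycling cells. Its groups are far apart, a difference of 3.37-fold (-1.75 ± 0.28, adjusted p = 1.05e-06; 0.0067 without the block). MCM5 (-1.22 ± 0.35, adjusted p = 0.0171) and MCM2 (-0.97 ± 0.28, adjusted p = 0.0159; opposite TPRA1) were lower as well, each call lost without the block (0.128 and 0.175) and in 6 of 9 fits (up to 0.381 without experiment A and 0.384 without B). CDC6, which loads the helicase, had 1, 0 and 1 counts at 6 h and 5, 10 and 9 in cycling cells, too few for a firm fold (adjusted p = 0.0152, lost in 7 of 8 fits, up to 0.213 without experiment B). SLBP, which binds histone mRNA and is removed at the end of S phase, had 7.92, 3.52 and 8.77 CPM at 6 h and 22.6, 16.4 and 10.1 in cycling cells (-1.28 ± 0.35, adjusted p = 0.00862; 0.119 without the block and up to 0.255 without experiment B).

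Features opposite to the genes of cyclin E2 and of the deubiquitinase USP37 fell, and which gene their counts belong to is uncertain. INTS8, opposite to CCNE2, had 72.2, 23.6 and 72.3 CPM at 6 h and 247, 212 and 263 in cycling cells, a difference of 4.62-fold (-2.21 ± 0.23, adjusted p = 1.37e-05). AC087752.4, also opposite to CCNE2, had 8.39, 3.01 and 10.4 CPM at 6 h and 35.9, 24.9 and 37.2 in cycling cells (-2.22 ± 0.29, adjusted p = 4.72e-10). CCNE2 itself fell less (-0.75 ± 0.17, adjusted p = 0.001; lost without experiment A at 0.107 and without the cycling library of A at 0.0546). None of the 3 passed without the block (0.111, 0.0814 and 0.0938). VIL1, opposite to USP37, had 89.5, 79.9 and 80.5 CPM at 6 h and 219, 186 and 204 in cycling cells (-1.28 ± 0.12, adjusted p = 3.37e-16), and GSE1, opposite to GINS2 of the helicase complex, had 46.6, 47.7 and 42.7 CPM at 6 h and 100.2, 107 and 125 in cycling cells (-1.27 ± 0.16, adjusted p = 9.54e-11). These last 2 passed without the block as well (0.000128 and 0.000314). E2F1 (-1.10 ± 0.49, adjusted p = 0.207) and PCNA (-0.67 ± 0.42, adjusted p = 0.423) did not pass. E2F1 had 7, 7 and 6 counts at 6 h and 20, 11 and 16 in cycling cells, and PCNA had 13, 11 and 6 at 6 h and 14, 26 and 11 in cycling cells. E2F letters (TTTCCCGC, TTTGGCGC or TTTCGCGC, either strand) were in 5 of the 8 promoters found for the 11 genes that fell, or 62.5%, against 2.79% of all promoters. CHR letters were in 0 of the 8, against 16.6% of all promoters. The shares among S phase genes that did not fall were not computed, so the letters are not tied to the fall.

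Genes of nucleotide supply, which thymidine acts on, had a median of -0.16 over 32 tested. None passed in edgeR, while 3 were lower and 0 higher with p under 0.05 before adjustment, and DESeq2 called 0. Of 24 features opposite to them 8 fell and 2 rose, against 3.52% and 2.78% of all features; the 8 were 2 without the block, 3 without experiment B or the cycling library of B, and 5 without the 6h_DMSO library of A or of C or the cycling library of C. Thymidylate synthase is an example: TYMS had 44.7, 49.7 and 34 CPM at 6 h and 48.8, 64.7 and 61.8 in cycling cells (-0.44 ± 0.17, adjusted p = 0.112). Its opposite features ENOSF1 (-0.36 ± 0.09, adjusted p = 0.00227) and TYMSOS (-0.40 ± 0.10, adjusted p = 0.00212) fell, both lost without the block (0.505 and 0.478) and in 4 of 9 fits (up to 0.172 without the 6h_DMSO library of C, and 0.0692 without experiment B).

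**Figure D3:**
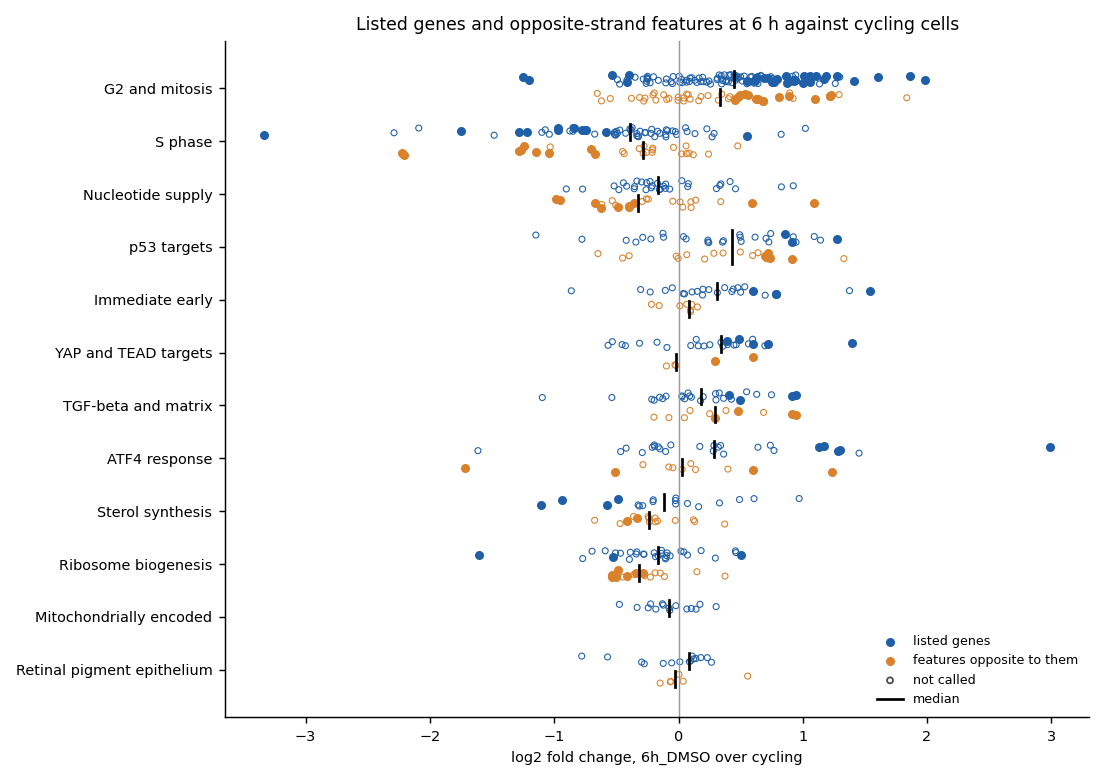
Log2 fold change of 6h_DMSO over cycling cells for listed genes (blue) and for features opposite to them (orange) in 12 groups; filled points were called and black bars are medians. The G2 and mitosis genes have a median of 0.45 and the S phase genes of -0.39, against -0.02 over all features.

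The features that differed under the block were taken from a comparison that shares no library with this one, arrested cells against 4h_DMSO, in which 4.77% of features were called, 340 (2.52%) higher and 304 (2.25%) lower in arrested cells. Of the 340 higher under the block, 102 were lower at 6 h than in cycling cells and 8 were higher, with a median of -0.26. Of the 304 lower under the block, 89 were higher at 6 h and 1 was lower, with a median of 0.30. The 102 and 89 are 30% and 29.3% of their sets, against 3.52% of all features called lower and 2.78% called higher at 6 h. The 8 are 2.35% of the 340, under the 2.78% of all features, and the 1 is 0.329% of the 304. Each alternative fit called both sets anew. The counts of 102 and 89, from 644 features in both sets, were 9 and 15 from 100 without the block term. They were 41 and 42 from 298 without experiment A, and 23 and 51 from 260 without experiment C. The first was 67 without the 6h_DMSO library of A, where both sets held 610.

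**Figure D4:**
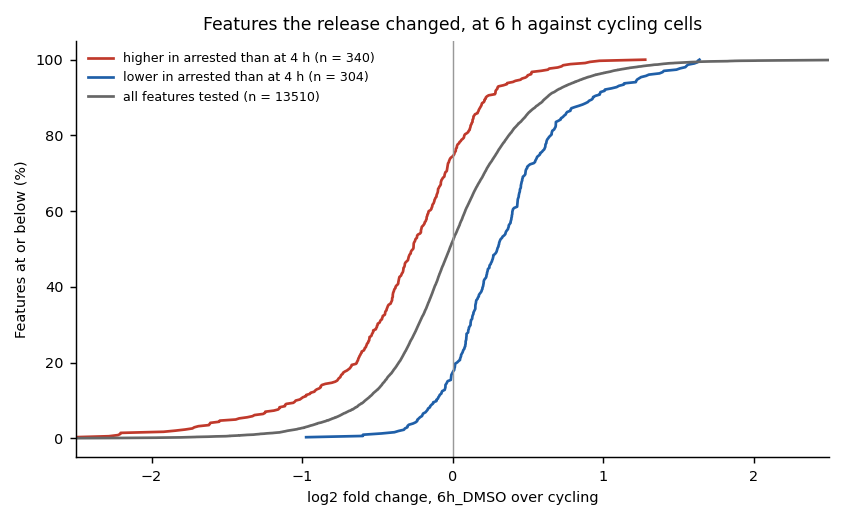
Share of features (%) at or below each log2 fold change of 6h_DMSO over cycling cells, for features called higher (red, 340) or lower (blue, 304) in arrested cells than in 4h_DMSO, and for all 13510 tested (grey). The red curve lies left of the grey one, with a median of -0.26, and the blue curve right of it, with a median of 0.30.

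The 8 features that were higher in both comparisons are named after their values were seen, and as a share near the background they are no result about the set. Some lie at genes of the response to p53, the factor that halts the cycle under stress. Opposite to MDM2, the ligase that limits p53, AC025423.4 had 1071, 1029.7 and 911 CPM at 6 h and 591, 527 and 700.3 in cycling cells (0.72 ± 0.11, adjusted p = 6.84e-06), with 1591 to 2214 in arrested cells. The gene named CPM, for carboxypeptidase M, lies at the same locus, also opposite to MDM2, and gave 0.73 ± 0.11 (adjusted p = 1.33e-06). MDM2 itself had 25.6, 31.1 and 37.8 CPM at 6 h and 19.5, 27.9 and 19.8 in cycling cells (0.50 ± 0.21, adjusted p = 0.174). FAS, the death receptor (opposite ACTA2), had 128, 128 and 120.0 CPM at 6 h and 78, 44.3 and 76.8 in cycling cells (0.91 ± 0.14, adjusted p = 1.27e-06). ACTA2-AS1, named as antisense to ACTA2, rose as well (0.94 ± 0.11, adjusted p = 3.71e-10 in edgeR), and which gene the FAS counts belong to is uncertain. AC025423.4, CPM and FAS passed without the block (0.0317, 0.0492 and 0.0147) and in each fit that left out a library or an experiment.

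CDKN1A, which encodes the CDK inhibitor p21, had 17.7, 47.2 and 35.6 CPM at 6 h and 16, 15.4 and 8.21 in cycling cells. In arrested cells it had 51.6, 135 and 48.8 CPM, and at 4 h 28, 74.3 and 48.7, highest in experiment B. The 6 h level was above cycling cells in all 3 experiments (1.28 ± 0.24, adjusted p = 8.45e-05), though narrowly in A and not past the threshold without the block (0.412), and below arrested cells (-1.19 ± 0.20). ABALON, opposite to the survival gene BCL2L1 (0.63 ± 0.09, adjusted p = 1.66e-08), GTPBP2, opposite to the polymerase gene POLH (0.70 ± 0.15, adjusted p = 0.000517; 0.069 without the block), JMJD4, opposite SNAP47 (0.88 ± 0.27, adjusted p = 0.0284; lost in 6 of 9 fits, up to 0.507 without experiment B), and 1 unnamed feature complete the 8. Over the p53 list, 3 of 30 genes and 4 of 18 opposite features rose and 0 fell, where unadjusted p under 0.05 gave 1 and 1 lower. DESeq2 called 3 genes and 5 opposite features higher and 0 lower. Of all features 2.78% rose. The median of the 30 was 0.43. Without the block 1 gene and 2 opposite features rose.

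**Figure D5:**
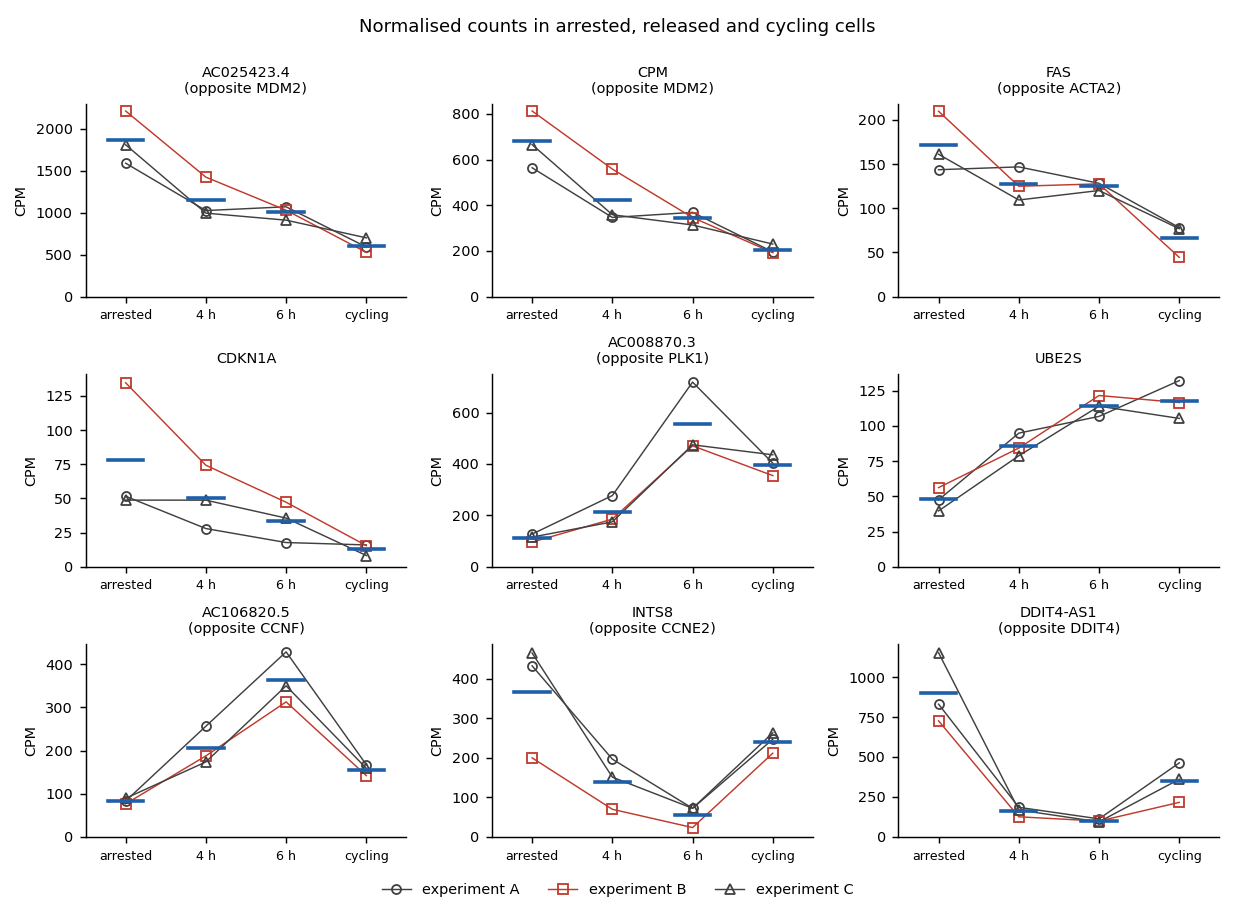
Normalised counts (CPM, linear axis from 0) of 9 features in arrested cells, at 4 h and 6 h of release with DMSO, and in cycling cells. Lines join the libraries of 1 experiment and do not join the same cells, and blue bars are means of 3 libraries. AC025423.4, CPM and FAS have higher means in arrested than in cycling cells with 4 h and 6 h between them, and FAS has nearly the same mean at 4 h (127) and 6 h (125); AC106820.5 peaks at 6 h, and INTS8 and DDIT4-AS1 are lowest at 6 h.

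Other differences that arrested cells already showed were unequal between experiments. MALAT1, a nuclear RNA (opposite AP000769.2), had 185, 345 and 225 CPM at 6 h and 122, 191 and 128 in cycling cells. Groups overlap, but each experiment gave a higher value at 6 h (0.76 ± 0.11, adjusted p = 3.4e-08; 0.613 without the block), and arrested cells were above cycling ones by the same 0.76 ± 0.11. FLG, filaggrin (opposite FLG-AS1), had 11.7, 37.7 and 19.7 CPM at 6 h and 2.22, 3.98 and 4.35 in cycling cells (2.64 ± 0.35, adjusted p = 9.74e-10; 0.152 without the block), with 8.31, 47.2 and 14.2 in arrested cells. HRNR, hornerin, a related protein of the epidermis, had 22, 79 and 22 counts at 6 h and 0, 0 and 8 in cycling cells (adjusted p = 0.00896; 0.108 without the block). Both are rich in repeats, so their reads are uncertain as to place. IL1A, the cytokine interleukin 1 alpha, had 14, 88.9 and 10.4 CPM at 6 h and 3.55, 21.9 and 4.35 in cycling cells (1.86 ± 0.26, adjusted p = 4.89e-09; 0.741 without the block). MALAT1, FLG, HRNR and IL1A were highest in the B library at 6 h, and the part of B in these values beyond the block was not tested.

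On the lists of growth and matrix signals most genes did not pass. Of 27 TGF-beta and matrix genes 4 rose (1 without the block, the 6h_DMSO library of C or the cycling library of B or of C), and of 25 immediate early genes 4 rose (0 without the block, 1 without experiment A or C or the 6h_DMSO library of C), against 2.78% of all features. GREM1, a secreted inhibitor of BMP, had 76.4, 69.3 and 89.9 CPM at 6 h and 27, 22.9 and 30.4 in cycling cells, a rise of 2.93-fold (1.55 ± 0.17, adjusted p = 3.78e-13). GREM1-AS1 opposite to it had 440.4, 420.4 and 413 CPM at 6 h and 157, 132 and 169 in cycling cells (1.48 ± 0.11, adjusted p = 1.26e-24). Both passed without the block (0.000314 and 0.000128), and both were higher still at 4 h, where GREM1 had 99.6 to 114 CPM, against 31 to 40.3 in arrested cells. ANKRD1, a muscle ankyrin protein and a target of YAP, had 214, 184 and 184 CPM at 6 h and 79.8, 59.3 and 84.5 in cycling cells (1.39 ± 0.16, adjusted p = 3.61e-08; 0.000636 without the block). CCN1, a matrix signal protein and YAP target, gave 0.72 ± 0.16 (adjusted p = 0.00106; 0.0968 without the block, 0.0576 without experiment C). Of 25 YAP and TEAD targets 5 rose, against 2.78% of all features, with a median of 0.34. That count was 1 without the block or without experiment C, and 2 without experiment A, the 6h_DMSO library of A or the cycling library of A or of C. KLF6, an early response factor, had 24.7, 17.6 and 25.2 CPM at 6 h and 12.4, 5.98 and 4.35 in cycling cells (1.54 ± 0.32, adjusted p = 0.000311; 0.0731 without the block).

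Amino acid genes under ATF4, the factor of the response to amino acid shortage, rose in 5 of 26 cases tested, against 2.78% of all features (median 0.28; 3 without the block or without experiment C). SLC7A5, the large neutral amino acid carrier, had 142, 116 and 189 CPM at 6 h and 65.6, 61.3 and 50.7 in cycling cells (1.30 ± 0.17, adjusted p = 7.47e-07). AC126696.2 opposite to it had 995, 715 and 1247 CPM at 6 h and 436, 327 and 480.1 in cycling cells (1.24 ± 0.09, adjusted p = 1.26e-24). NUPR1, a stress factor, had 41.5, 42.7 and 68.5 CPM at 6 h and 29.3, 17.4 and 21.7 in cycling cells (1.13 ± 0.20, adjusted p = 1.27e-05). All 3 passed without the block (0.00266, 0.00505 and 0.0188). DDIT4-AS1, opposite to DDIT4, an ATF4 target that restrains mTORC1, went against them with 113, 98.9 and 94.2 CPM at 6 h and 463, 216 and 361 in cycling cells (-1.72 ± 0.27, adjusted p = 0.00373; 0.0152 without the block). That call was lost without experiment C (0.11), and arrested cells had 726 to 1152 CPM.

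Of 18 lipid synthesis genes on the sterol list 4 fell, against 3.52% of all features, a count of 0 without the block, 1 without experiment A or the cycling library of B, and 2 without experiment B or the 6h_DMSO library of A. SCD, the stearoyl-CoA desaturase, had 21, 8.04 and 12.6 CPM at 6 h and 36.8, 23.9 and 27 in cycling cells (-1.11 ± 0.27, adjusted p = 0.00214; 0.264 without the block, 0.0778 without experiment B). FASN, fatty acid synthase, had 29.4, 22.1 and 36.7 CPM at 6 h and 61.2, 54.3 and 50.7 in cycling cells (-0.94 ± 0.21, adjusted p = 0.00174; 0.142 without the block, 0.188 without experiment A). EPB41, TOX2 and AC104066.1 are among the 12 named features with the largest falls at 5 CPM or more in cycling cells. EPB41, a protein of the membrane skeleton (opposite TMEM200B), had 5.59, 9.04 and 9.32 CPM at 6 h and 38.6, 20.9 and 36.2 in cycling cells (-1.97 ± 0.30, adjusted p = 1.08e-07; 0.00484 without the block). TOX2, a chromatin protein, had 4, 4 and 2 counts at 6 h and 27, 15 and 21 in cycling cells (-2.55 ± 0.55, adjusted p = 0.000483; 0.0281 without the block). AC104066.1, opposite to the noncoding RNA DANCR, had 3.26, 2.01 and 3.29 CPM at 6 h and 20, 13.9 and 12.6 in cycling cells (-2.42 ± 0.43, adjusted p = 1.09e-05; 0.0067 without the block).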

How the data were processed

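The table of read counts that the authors deposited holds raw whole-number counts for 60252 features and 17 libraries of 6 conditions. TopHat, HTSeq, DESeq2 and GRCh37 are named in the submitters' processing notes, with versions and strand setting not given in the sources used here. Their log2 fold changes and their adjusted p-values were in a table that the authors also deposited.

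Features were kept by filterByExpr (minimum count 10, minimum total 15), which left 13510. One fit in edgeR 4.0.16 (R 4.3.3; TMM, glmQLFit with robust estimation, glmQLFTest) to all libraries had a mean per condition and the experiment (A, B, C) as a block, with 9 residual degrees of freedom and a common coefficient of variation of 0.119 (0.23 without the block). The pairing comes from the design text's 3 independent experiments. Deviations of 6h_DMSO and cycling libraries from their group means correlated at 0.147, 0.404 and 0.081 across features in A, B and C, and A with C at 0.175 and 0.187, so the pairing shows clearly for B and weakly for A and C. The p-values measure how far differences between conditions vary from experiment to experiment, after the level shared within an experiment is taken out. That spread is estimated over all 17 libraries of 6 conditions. CPM are counts scaled by TMM library size. The counts carry no molecular identifiers.

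Names came from a name table (40377 features) and from GENCODE 29 on GRCh38 (15533), which also gave opposite-strand overlaps; no coordinates were taken from it. Members and lists were chosen with earlier results of these data known. Named features were a fixed panel with its opposite features, the 12 largest rises and falls at 5 CPM or more, up to 6 called features per list and direction, features near their arrested level and G2 gains. SKA3, KIF18A, KIF23-AS1, BORA, CDCA3, MROH2A, ABALON, JMJD4 and the clock features were named after their values were seen. The values of 1 of the 5 G2 and mitosis genes called lower are not reported here. The script was tested on simulated data. DESeq2 1.42.0, no block, 6 libraries only, RLE factors, no filter, and fits without a library, an experiment or the top feature of experiment B were the alternatives.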

Additional observations from a re-analysis of the deposited data

How the results depend on the processing

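With the 850 calls as the base, 375 higher and 475 lower, the fit without the replicate block gave 66 and 74, and for the other comparisons 139 calls in place of 762 (arrested against cycling), 124 of 793 (4h_DMSO against cycling), 314 of 1041 (6h_DMSO against arrested) and 100 of 644 (arrested against 4h_DMSO); the features called the other way numbered 9 and 15 in place of 102 and 89. On the lists that fit called 8 G2 and mitosis genes higher, 2 lower and 6 opposite features higher, and 0 S phase genes higher and 1 lower. The 5 G2 and mitosis genes called lower were 3 with the 6 libraries alone, RLE factors, DESeq2, no filter, without the top feature of experiment B, and with B against A and C as the block, an alternative added after seeing the data; the first 5 of these settings also called 1 feature opposite to S phase genes higher, and DESeq2 called 7 S phase genes lower. Leaving out a library or an experiment gave 184 to 366 features higher and 216 to 387 lower, 350 to 766 (arrested against cycling), 475 to 759 (4h_DMSO against cycling), 526 to 1083 (6h_DMSO against arrested), 260 to 682 (arrested against 4h_DMSO), 23 to 92 and 42 to 88 features called the other way, 6 to 26 and 2 to 4 G2 and mitosis genes, 9 to 19 opposite features, 0 to 2 and 1 to 10 S phase genes, and 0 to 1 of their opposite features higher. Of 92 named features called, 37 kept their call without the block, 89 with RLE factors and 74 with DESeq2 (8 lost it), and 48 lost it in at least 1 fit that left something out; none of the 92 changed direction in these alternatives. Among uncalled features the sign changed in such fits for UBE2S (-0.13 to 0.10), PLK1 (-0.0279 to 0.51), SAPCD2 (-0.0792 to 0.36) and DDIT4 (-2.31 to 0.0768). The cause was not tested. Depth, at 1784999 to 2357561 counts a library, limits the fold changes of features at a few CPM.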

Other observations

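Genes of the circadian clock were not on the lists, and were looked at after the values of NR1D2 and UTS2 had been seen. NR1D2, a repressor of the clock's positive arm, had 2.33, 3.01 and 3.84 CPM at 6 h and 10.2, 7.97 and 11.6 in cycling cells (-1.69 ± 0.47, adjusted p = 0.0124 in edgeR; 0.0961 without the block, lost in 4 of 9 fits, up to 0.201 without experiment A). Opposite to the period gene PER3, UTS2 had 16.3, 31.1 and 18.6 CPM at 6 h and 60.3, 68.2 and 46.4 in cycling cells (-1.42 ± 0.21, adjusted p = 3.22e-08), and Z98884.1 had 12.6, 18.6 and 11 against 47.9, 68.2 and 43.5 (-1.92 ± 0.23, adjusted p = 2.6e-11). THRA, opposite to NR1D1, had 16.3, 13.6 and 9.32 CPM at 6 h and 49.2, 31.9 and 32.8 in cycling cells (-1.55 ± 0.25, adjusted p = 6e-07). SSPN, opposite to the repressor gene BHLHE41, had 42.4, 32.1 and 28.5 CPM at 6 h and 104, 84.7 and 70.5 in cycling cells (-1.33 ± 0.17, adjusted p = 5.15e-10). Of these 5, the last 4 passed without the block (0.00891, 0.00579, 0.00641 and 0.00482).

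In arrested cells the same features lay near the cycling level, with log2 differences of 0.00 ± 0.43 for NR1D2, 0.01 ± 0.18 for UTS2, -0.33 ± 0.20 for Z98884.1, -0.16 ± 0.22 for THRA and 0.10 ± 0.16 for SSPN (edgeR adjusted p = 0.426 to 0.999). At 4 h they were already lower than in cycling cells, by -1.80, -1.01, -1.07, -1.17 and -1.08. BMAL1 (0.18), CLOCK (0.37; opposite TMEM165), NPAS2 (0.13; opposite NPAS2-AS1), PER2 (-0.75; opposite AC012485.1), NR1D1 (-0.35), DBP (-0.42; opposite SPHK2), BHLHE40 (0.50; opposite BHLHE40-AS1), BHLHE41 (-1.15, edgeR adjusted p = 0.0676) and RORA (0.36; opposite RORA-AS1) were tested and not called at 6 h. All of these features other than NR1D2 and BMAL1 are overlapped, so which gene of each pair their counts belong to is uncertain.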
